A study of Mus musculus with 6 samples.

Results

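The 40 genes described here are genes of striated muscle, chosen by name: the myogenic factors, the proteins of the sarcomere, and genes of the calcium store and energy supply of muscle fibres. All 40 were found among the 24421 gene symbols of the count table, and they were followed in isolated blood endothelial cells (BECs) of embryonic skin. Skin BECs came from E15.5 embryos that were Tie2-Cre(-); Dot1l 2f/2f (Cont) or Tie2-Cre(+); Dot1l 2f/2f (cKO), so both groups carry the floxed Dot1l alleles. CD45+, F4/80+ and Lyve1+ cells had been removed with antibodies, and although the study's scheme of the isolation also names CD31 as a BEC marker, its methods give no step that selects for it. For each genotype 1 library was made from pooled RNA of 2 to 3 embryos. Tie2-Cre is driven by an endothelial promoter that is also active in much of the blood lineage, and Dot1l is the methyltransferase of lysine 79 of histone H3. The other 4 libraries are cultured yolk sac BECs (CRL-2581) and cultured dermal lymphatic endothelial cells (LECs, C57-6064L), each transduced with empty lentivirus (Cont) or with a lentivirus that brings dCas9-VP64 to the Dot1l promoter (OE), from 2 to 3 flasks each. No group has a replicate, so each difference is one between libraries and no test of a condition was possible. Every interval covers counting error only, since the spread between libraries of a group was not measured. Reads that lack molecular identifiers may be copies of 1 molecule, so the intervals may be too narrow even for counting error.

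Striated muscle contracts by the sliding of myosin filaments along actin filaments within the sarcomere. The Z disc anchors the actin filaments, titin spans from the Z disc to the middle of the sarcomere, and the troponin complex on the actin filament opens the binding sites for myosin when calcium is released from the sarcoplasmic reticulum. In the embryo, the myogenic factors Myf5, Myod1, Myog and Myf6 switch on these genes, and fibres first use embryonic, slow and cardiac isoforms and replace many of them by adult fast isoforms later. Mouse skin holds a thin sheet of skeletal muscle, the panniculus carnosus, beneath the dermis, and striated muscle genes are not a known part of the endothelial programme. In a pooled library, fewer cells of a type and less RNA per cell cannot be told apart.

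The skin libraries held 8863349 reads (Cont) and 11084686 reads (cKO), and the cultured libraries between 13933651 and 31032461. All 12 endothelial markers were present in the skin libraries, with summed levels of 6820.1 CPM (reads per 1000000 reads of the library) in Cont and 4330 CPM in cKO. Markers of other cell types were present as well, those of the removed macrophages included. The 8 fibroblast genes summed to 2537 and 1870 CPM, the 8 macrophage genes to 3529 and 5450 CPM, the 12 genes of smooth muscle and pericytes to 965 and 846 CPM, and the 10 keratinocyte genes to 233 and 405 CPM, in the order Cont and cKO, and no gene of these 4 lists was at 0 in either skin library. Dot1l itself had 762 reads (86.0 CPM) in Cont and 944 (85.2 CPM) in cKO, which does not check the genotype, since the total over all exons includes those outside the deleted part. In the cultured cells Dot1l was at 112 CPM in Cont BECs beside 302 CPM in OE-BECs, and at 95.3 CPM in Cont LECs beside 217 CPM in OE-LECs.

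Together the 40 muscle genes made up a small share of the skin RNA. They had 1680 reads in Cont, a summed level of 189.5 CPM (exact interval 181 to 199), and 1901 reads in cKO, 171 CPM (interval 164 to 179). Ttn, which encodes titin and has by far the longest transcript of the set, gave 48.0% of these reads in Cont and 49.2% in cKO. In each skin library 28 of the 40 genes had more than 3 reads, the count treated as the floor of a library (0.338 CPM in Cont and 0.271 CPM in cKO), and 20 and 19 genes had at least 10 reads. Only Ttn, Neb and Des reached 100 reads in Cont, joined by Tnnt1 in cKO. Scaled to the exon length of each gene, Des was highest in Cont at 5.80 CPM per kb, before Actc1 at 3.07, Casq2 at 2.89 and Mylpf at 2.66, while Ttn stood at only 0.779. In cKO the highest were Tnnt1 at 5.12 CPM per kb, Des at 2.69, Tnni2 at 2.65 and Mylpf at 2.21, and Ttn stood at 0.722.

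**Figure D1:**
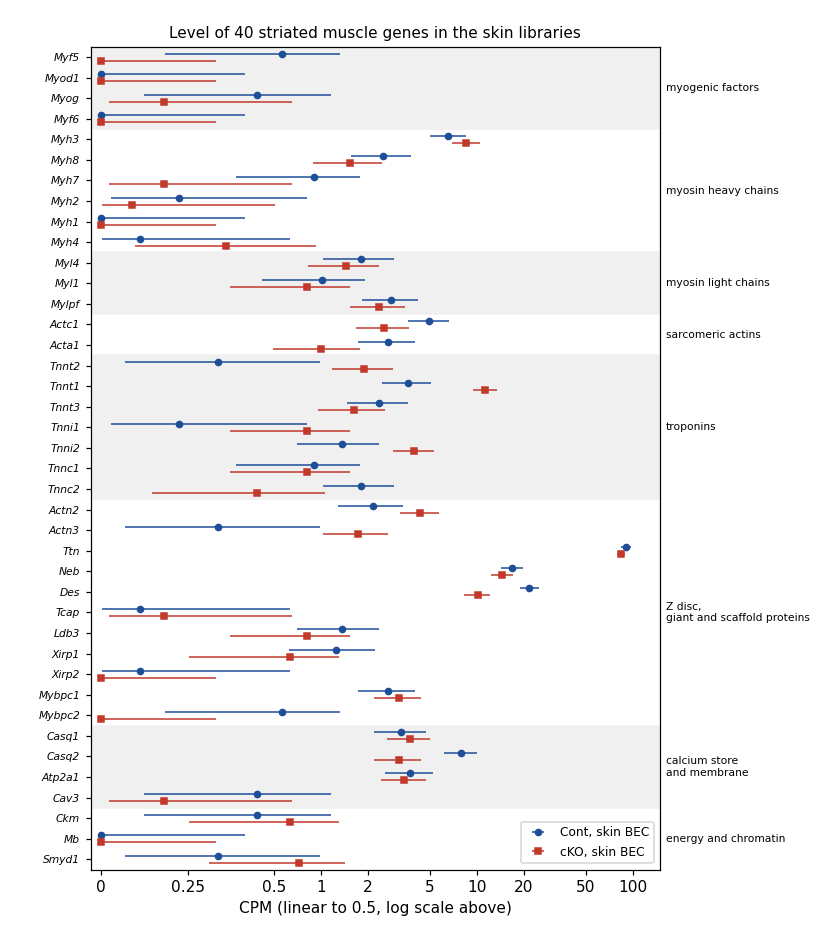
Level of each of the 40 striated muscle genes in the Cont (circles) and cKO (squares) skin BEC libraries, in CPM on an axis that is linear up to 0.5 and logarithmic above, with exact 95% Poisson intervals as bars and the genes grouped by role. Most genes lie below 5 CPM with overlapping intervals, and Ttn stands alone at 91.0 and 84.4 CPM. The intervals lie apart, higher in cKO, for Tnnt1 (3.61 and 11.3 CPM), Tnnt2 (0.338 and 1.89), Tnni2 (1.35 and 3.97) and Actn3 (0.338 and 1.71), and lower in cKO for Des (21.8 and 10.1 CPM) and Casq2 (7.90 and 3.16).

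Upregulated and downregulated genes were called by the rule of the study's methods, which asks for a higher normalized count of at least 5 that is more than 3 times the lower one. Of the 30 muscle genes that reached 5 normalized counts, 4 were called higher in cKO (Tnnt2, Tnnt1, Tnni1 and Actn3) and 4 lower (Myf5, Myh7, Tnnc2 and Mybpc2), which is 13.3% in each direction. Over all 15993 genes that reached this count, 5.17% were called higher and 2.41% lower. Most of the muscle genes had few reads, however, and among the 4109 genes whose higher normalized count lay from 5 to 50 615 were called higher and 304 (7.40%) lower, against 3 and 4 of the 23 muscle genes in that range. In the higher direction the muscle genes were thus called about as often as other genes with few reads, and each of the 4 lower calls rested on 16 reads or fewer in the higher library. Counting error gives another reading of the same values: the exact interval of the log2 ratio lay above 0 for 5 genes and below 0 for 9, included 0 for 19, and was not computed for 7 genes with at most 3 reads in both libraries. These sides were not counted over all genes, and of the 12 endothelial markers 1 lay above 0 and 11 below. Nothing particular to the muscle genes is therefore read from them. The median log2 ratio of the 28 genes with 10 or more reads over both libraries was -0.23, with 11 genes above 0 and 17 below, beside a median of 0.00 over all 15554 genes with as many reads. The log2 ratio of the summed reads was -0.20 (interval -0.30 to -0.10). It was 0.10, for which no interval was kept, without the 15 genes whose exons overlap a gene on the opposite strand. These include Ttn, Neb and Des, and the lower calls then fell to 1 (Myf5). Without only the genes overlapped over at least 10% of their exon length the ratio of the summed reads was -0.19. With a minimum of 20 normalized counts only Tnnt1 was called.

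**Figure D2:**
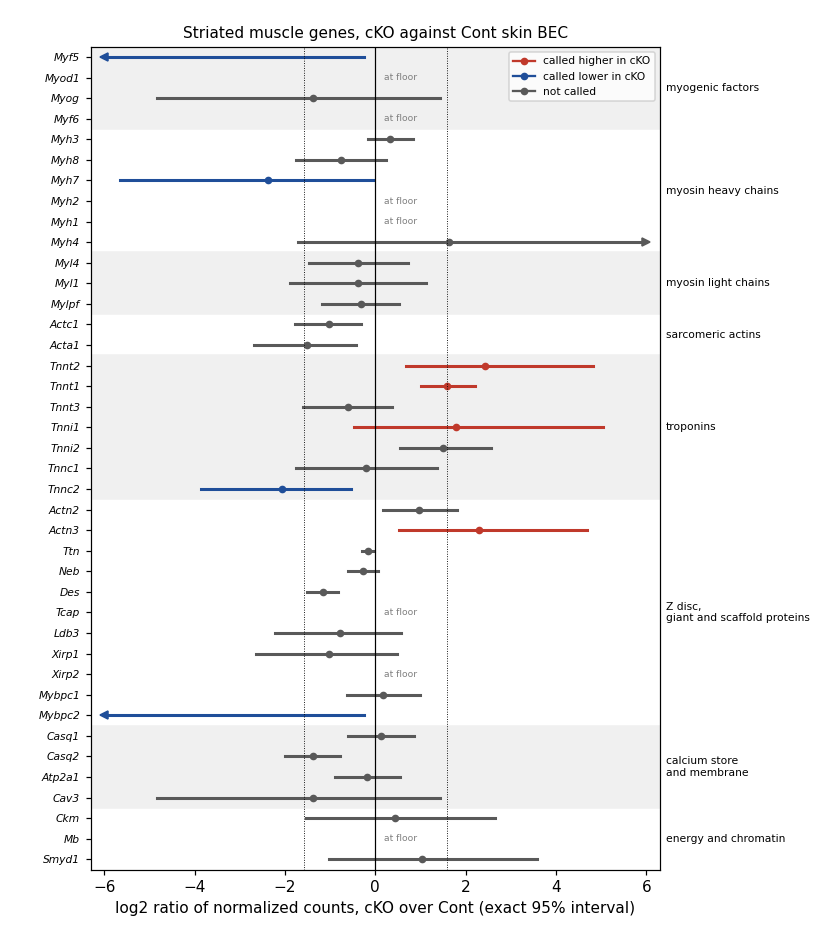
Log2 ratio of normalized counts, cKO over Cont skin BEC, for each muscle gene with its exact 95% interval (bars) and the 3-fold limits of the rule as dotted lines. Red marks genes called higher, blue genes called lower and grey the others, arrows mark intervals that run beyond the axis, and "at floor" marks the 7 genes with at most 3 reads in both libraries. The red genes are 3 troponins and Actn3, and most grey intervals cross 0.

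The myogenic factors, the transcription factors that commit cells to the muscle lineage, were close to absent. Myod1 and Myf6 had 0 reads in both skin libraries, for which the exact interval reaches up to 0.416 CPM in Cont and 0.333 CPM in cKO. Myog, which drives the fusion of myoblasts into fibres, had 4 reads in Cont and 2 in cKO (log2 ratio -1.38, interval -4.84 to 1.42). Myf5, the earliest of the factors, had 5 reads in Cont and 0 in cKO. It was called lower, at least 2.17-fold against the floor of 3 reads, and the nearer limit of its counting interval was a log2 ratio of -0.25. None of these 4 genes had a read in any cultured library. In all, the factors gave 9 reads in Cont and 2 in cKO.

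Among the myosin heavy chains, the motor proteins of the thick filament, the embryonic form Myh3 led in both libraries. Myh3 (chromosome 11, 67078300 to 67102291) had 58 reads (6.54 CPM) in Cont and 95 reads (8.57 CPM) in cKO, a log2 ratio of 0.33 with an interval from -0.15 to 0.83. Myh8, the perinatal form, had 22 reads (2.48 CPM) and 17 reads (1.53 CPM), a log2 ratio of -0.75 (interval -1.75 to 0.23). Neither interval lay apart from 0. The slow and cardiac form Myh7 had 8 and 2 reads and was called lower (log2 ratio -2.38, interval -5.65 to -0.05). Its exons overlap antisense genes over 13.3% of their length, of which Mhrt had 0 reads in all 6 libraries. The adult fast forms were at or near the floor, with 2 and 1 reads for Myh2, 0 and 0 for Myh1, and 1 and 4 for Myh4. Except for Myh7, these genes lie side by side on chromosome 11 of mm10 with closely similar sequences, which leaves the division of reads between them uncertain too. Within the pair of Myh3 and Myh8, Myh8 took 27.5% of the reads in Cont (exact interval 18.1% to 38.6%) and 15.2% in cKO (interval 9.10% to 23.2%). The odds of Myh8 against Myh3 in cKO were 0.474 of those in Cont, with a conditional exact interval from 0.216 to 1.02 that includes 1, so a difference in this share was not detectable at this depth.

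The 3 myosin light chains summed to a log2 ratio of -0.35 with an interval that includes 0 (-0.94 to 0.24), while both thin filament actins were lower in cKO beyond counting error. Myl4, the embryonic and atrial light chain, had 16 reads in both libraries, which is 1.81 CPM in Cont and 1.44 CPM in cKO (log2 ratio -0.38, interval -1.47 to 0.72). Myl1, the fast alkali light chain, had 9 reads in both (log2 ratio -0.38, interval -1.89 to 1.13), and Mylpf, the fast regulatory light chain, had 25 and 26 (log2 ratio -0.32, interval -1.17 to 0.53). Of the actins, Actc1, the cardiac form that embryonic skeletal muscle also uses, had 44 reads (4.96 CPM) in Cont and 28 (2.53 CPM) in cKO, a log2 ratio of -1.03 (interval -1.77 to -0.31). Acta1, the skeletal form, had 24 reads (2.71 CPM) and 11 (0.992 CPM), a log2 ratio of -1.50 (interval -2.68 to -0.42), which is 2.84-fold and so just short of the rule. Both intervals lay below 0, and the share of Acta1 in their reads was 35.3% and 28.2% with overlapping intervals. The coding sequences of these genes are nearly identical, which makes the split between them uncertain.

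Troponins were the group in which the skin libraries differed most in the higher direction. Tnnt subunits tie the complex to tropomyosin, Tnni subunits inhibit the contact of actin with myosin, and Tnnc subunits bind calcium. The 7 genes summed to 94 reads in Cont and 231 in cKO, a log2 ratio of 0.92 (interval 0.57 to 1.28), and their share in the reads of the 40 genes was 5.60% and 12.2%. The sum leans on Tnnt1 and was not computed without it, and of the 7 ratios 4 lay above 0 and 3 below. Tnnt1, of slow skeletal muscle, had the most reads of the 7, with 32 reads (3.61 CPM) in Cont and 125 (11.3 CPM) in cKO. Its log2 ratio was 1.59 (interval 1.02 to 2.20), and at 3.01-fold it stood just inside the rule. Tnnt2, the cardiac form that early skeletal muscle also uses, had 3 and 21 reads and was called higher (log2 ratio 2.43, interval 0.69 to 4.82). Tnni1, of slow muscle, was called higher with 2 and 9 reads, but its interval from -0.48 to 5.04 includes 0. Tnni2, of fast muscle, had 12 reads (1.35 CPM) and 44 (3.97 CPM), a log2 ratio of 1.50 (interval 0.55 to 2.55), which is 2.82-fold and just outside the rule. The remaining troponins were not higher. Tnnt3, the fast partner of Tnni2, had 21 and 18 reads (log2 ratio -0.60, interval -1.59 to 0.38), and Tnnc1, of slow and cardiac muscle, had 8 and 9. Tnnc2, of fast muscle, was called lower with 16 and 5 reads (log2 ratio -2.06, interval -3.86 to -0.54), but 74.0% of its exon length is overlapped on the opposite strand by Ube2c, which had 706 and 1582 reads.

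The troponin genes lie in pairs of a Tnnt and a Tnni gene, which allowed a comparison within each pair. On chromosome 1 of mm10, Tnni1 (135779434 to 135810989) ends 25.4 kb before Tnnt2 (135836354 to 135852260), and both were called higher in cKO. On chromosome 7, Tnnt1 (4504570 to 4516382) lies 1.92 kb from Tnni3, the cardiac inhibitory subunit, which is not among the 40 genes. Tnni3 had 3 reads in Cont and 72 in cKO, a log2 ratio of 4.21 (interval 2.60 to 6.52). It was called higher, as were 5.17% of all genes that reached 5 normalized counts. In the cultured libraries it had from 20 to 24 reads (0.773 to 1.72 CPM), each level above the 0.338 CPM of Cont skin. Its exons overlap Dnaaf3 on the same strand over 86 of 2063 bases. Of the 8 cardiac muscle markers, Ryr2 (71 and 63 reads) and Nppa (7 and 9 reads) also reached this count and were not called. The others did not reach it and could not be called. The third pair, Tnni2 (142441808 to 142444410) and Tnnt3 (142498836 to 142516009) on chromosome 7, lies 54.4 kb apart, and its members differed from each other. Against Tnnt3, the odds of a read of Tnni2 in cKO were 4.21 times those in Cont (conditional exact interval 1.60 to 11.6). For Tnnt1, which belongs to another pair, they were 4.51 times those in Cont (interval 2.03 to 10.2). Such ratios within a library do not depend on its depth. They were not planned and restate the single-gene differences given above, so they are no further support for them. In the same libraries 7 of 10 keratinocyte and 7 of 8 macrophage markers had intervals above 0. Of the endothelial markers 11 of 12 and of the fibroblast markers 7 of 8 had intervals below 0. These sides were not counted over all genes, and the part of these cells in the troponin reads was not tested.

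Other parts of the sarcomere differed in both directions. Ttn had 807 reads (91.0 CPM) in Cont and 935 (84.4 CPM) in cKO, a log2 ratio of -0.17 (interval -0.30 to -0.03), and Neb, the ruler of the thin filament, had 149 and 161 reads (log2 ratio -0.27, interval -0.60 to 0.07). Des, the intermediate filament desmin that links Z discs and is also made by smooth muscle and pericytes, had 193 reads (21.8 CPM) and 112 reads (10.1 CPM). Its log2 ratio was -1.16 (interval -1.51 to -0.82), and the summed ratio of the 12 markers of smooth muscle and pericytes was -0.24 (interval -0.29 to -0.20). The alpha-actinins, which cross-link actin at the Z disc, went the other way. Actn2 had 19 and 48 reads (log2 ratio 0.96, interval 0.17 to 1.81), and Actn3, the form of fast fibres, had 3 and 19 reads and was called higher (log2 ratio 2.29, interval 0.52 to 4.69). Of the myosin-binding proteins C, Mybpc1 of slow fibres had 24 and 35 reads with an interval that includes 0, while Mybpc2 of fast fibres had 5 and 0 and was called lower, at least 2.17-fold against the floor. Ldb3 (12 and 9 reads) and Xirp1 (11 and 7), both proteins that bind at the Z disc or at cell junctions, had intervals that include 0, and Tcap, the titin cap, (1 and 2) and Xirp2 (1 and 0) were at the floor.

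In the calcium store, the calsequestrins that bind calcium inside the sarcoplasmic reticulum differed from each other. Casq2, the cardiac and slow form, had 70 reads (7.90 CPM) in Cont and 35 (3.16 CPM) in cKO, a log2 ratio of -1.38 (interval -2.01 to -0.77). Casq1, the fast form, had 29 reads (3.27 CPM) and 41 (3.70 CPM), a log2 ratio of 0.12 (interval -0.60 to 0.86). Casq2 thus took 70.7% of the calsequestrin reads in Cont (exact interval 60.7% to 79.4%) and 46.1% in cKO (interval 34.5% to 57.9%). The odds ratio of 0.356 had an interval from 0.180 to 0.692 that lay below 1. This ratio was not planned either and restates the difference of Casq2. Atp2a1, the calcium pump of fast fibres, had 33 and 38 reads, with 21.9% of its exon length overlapped by Rabep2, and Cav3, the caveolin of muscle, had 4 and 2. The genes of energy supply and muscle chromatin had few reads. Ckm, muscle creatine kinase, had 4 and 7 reads, Mb, myoglobin, had 0 in both, and Smyd1, a methyltransferase of striated muscle that helps to fold myosin, had 3 and 8. The interval of Ckm and that of Smyd1 included 0.

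Promoters of the genes with the clearest differences are shown because the myogenic factors and the MEF2 and TEAD proteins bind short boxes there. They are 300-base windows from 250 bases before to 50 bases after the start of the gene, taken from RefSeq on GRCm38.p6, which held 38 windows for 32 of the 40 genes. Capitals mark E boxes (CANNTG), MEF2 boxes (CTA and TAG with any 4 bases between them) and MCAT boxes (CATTCCT), searched on both strands, with overlapping matches all counted. Tnnt1 and Tnnt2 were called higher in cKO, and Casq2 and Des were lower beyond their intervals. Tnnt1 is at chr7:4515926-4516225 on the minus strand, Tnnt2 (the first of its windows) at chr1:135836084-135836383, Casq2 at chr3:102086165-102086464 and Des at chr1:75360042-75360341, all on the plus strand.
Tnnt1: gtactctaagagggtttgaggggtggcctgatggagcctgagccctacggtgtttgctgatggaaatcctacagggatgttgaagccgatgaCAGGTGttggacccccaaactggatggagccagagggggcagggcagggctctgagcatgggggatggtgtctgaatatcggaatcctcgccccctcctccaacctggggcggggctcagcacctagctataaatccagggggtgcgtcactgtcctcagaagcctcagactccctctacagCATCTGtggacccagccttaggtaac
Tnnt2: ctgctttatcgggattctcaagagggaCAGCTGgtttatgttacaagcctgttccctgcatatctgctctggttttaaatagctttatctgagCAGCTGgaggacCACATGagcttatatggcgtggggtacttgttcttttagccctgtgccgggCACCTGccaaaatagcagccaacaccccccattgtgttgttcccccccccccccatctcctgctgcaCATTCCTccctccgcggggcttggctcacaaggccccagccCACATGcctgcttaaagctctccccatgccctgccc
Casq2: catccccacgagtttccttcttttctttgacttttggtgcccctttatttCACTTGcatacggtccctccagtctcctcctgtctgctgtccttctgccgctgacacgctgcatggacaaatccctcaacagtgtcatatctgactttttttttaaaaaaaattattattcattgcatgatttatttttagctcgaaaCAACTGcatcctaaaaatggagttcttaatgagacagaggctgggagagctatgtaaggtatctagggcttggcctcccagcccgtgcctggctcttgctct
Des: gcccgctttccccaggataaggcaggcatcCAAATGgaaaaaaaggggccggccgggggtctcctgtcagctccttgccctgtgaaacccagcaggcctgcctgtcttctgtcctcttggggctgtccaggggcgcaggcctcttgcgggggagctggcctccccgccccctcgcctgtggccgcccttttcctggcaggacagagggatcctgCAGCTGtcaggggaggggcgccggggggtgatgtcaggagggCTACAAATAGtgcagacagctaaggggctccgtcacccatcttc

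In these windows Tnnt2 had 5 E boxes and 1 MCAT box, Tnnt1 and Casq2 had 2 E boxes each, and Des had 2 E boxes and 1 MEF2 box. The higher and the lower genes thus both had E boxes. Over all 38 windows of the muscle genes, 81.6% held an E box, 15.8% a MEF2 box and 7.89% an MCAT box, beside 72.3%, 3.69% and 5.36% of the 32851 windows of all genes. A match describes letters in the window and is not evidence of binding.

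The genes were also grouped as embryonic, slow or cardiac isoforms and as adult fast isoforms with genes of mature fibres. The first group is thus not one of stage alone. The summed reads of neither group differed between the libraries beyond counting error. The 10 embryonic, slow or cardiac isoforms summed to 263 and 357 reads, a log2 ratio of 0.06 (interval -0.17 to 0.30), and of the 10 that reached 5 normalized counts 3 were called higher and 1 lower. The 14 adult fast isoforms and genes of mature fibres summed to 175 and 214 reads, a log2 ratio of -0.09 (interval -0.38 to 0.21), and of the 10 that reached 5 normalized counts 1 was called higher and 2 lower. Over all genes the shares called were 5.17% and 2.41%, and nothing is read from these few calls. Both intervals of the sums include 0 and overlap widely. In each group 2 genes had intervals above 0 and 3 below, so each sum joins differences in both directions.

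**Figure D3:**
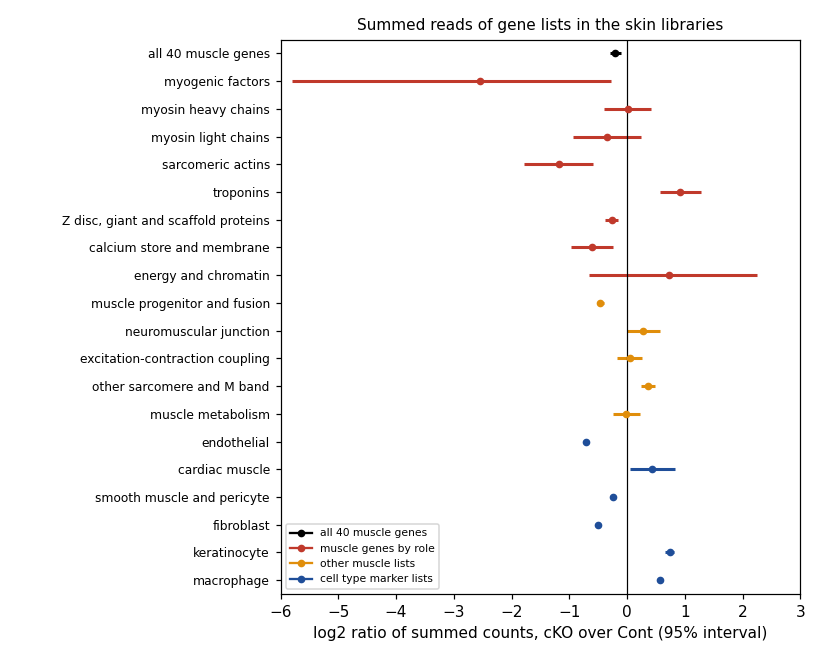
Log2 ratio of the summed normalized counts of each gene list, cKO over Cont skin BEC, with exact 95% intervals as bars that are hidden by the point where a list has many reads. The troponins (0.92) and the actins (-1.18) lie on opposite sides of 0 among the muscle groups, and the endothelial (-0.71), fibroblast (-0.50), keratinocyte (0.74) and macrophage (0.57) markers lie apart from 0 as well.

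Another 61 muscle genes were set out in 5 lists, and 59 of them were in the table. Of the 40 that reached 5 normalized counts, 6 were called higher in cKO and 1 lower, beside 5.17% and 2.41% over all genes. Every called gene had few reads, however, with 32 or fewer in the higher library. Among the 4109 genes whose higher normalized count lay from 5 to 50, 615 were called higher and 304 lower. How many genes of these lists lay in that range was not counted, so the shares cannot be compared and no excess of calls is read. Over the 37 genes with 10 or more reads the median log2 ratio was 0.15, with 22 above 0 and 15 below. In the list of muscle progenitors and fusion none of 8 genes was called, and its most abundant members, Mef2c (3697 and 3356 reads, log2 ratio -0.52) and Met (506 and 579 reads, log2 ratio -0.18), are also used by endothelial or epithelial cells. At the neuromuscular junction, Rapsn, which clusters acetylcholine receptors, had 7 and 32 reads and was called higher (log2 ratio 1.81, interval 0.61 to 3.24), as was the receptor subunit Chrna1 with 2 and 8, while Chrnb1 had 133 and 195 (log2 ratio 0.17, interval -0.15 to 0.50). Of 12 genes of excitation-contraction coupling, Cacng1, a subunit of the voltage sensor, was called higher with 1 and 17 reads (log2 ratio 3.71, interval 1.04 to 9.09) and Jsrp1 lower with 6 and 0, while Jph1 (93 and 96) and Srl (70 and 73) had intervals that include 0. Of 21 further sarcomere genes, Myoz1 (2 and 19 reads, log2 ratio 2.87, interval 0.82 to 6.02) and Myoz2 (0 and 7 reads), both Z disc proteins, were called higher. The most abundant, Nrap, a protein of growing myofibrils, had 321 reads in Cont and 823 in cKO (log2 ratio 0.98, interval 0.79 to 1.17), and Myom1 of the M band had 126 and 183 (log2 ratio 0.16, interval -0.17 to 0.50). Unc45b, the chaperone of myosin, was named after its values were seen, since it had 204 and 98 reads (log2 ratio -1.44, interval -1.80 to -1.08), in the opposite direction to Nrap. It was the only 1 of these 21 genes with an interval below 0, while 4 had intervals above 0. The summed log2 ratio of the 21 genes was 0.36 (interval 0.24 to 0.48), from 865 and 1444 reads that include the 321 and 823 of Nrap. Over the 10 of them with 10 or more reads the median was 0.09, with 6 above 0 and 4 below. The sum without Nrap was not computed, and no direction is given for this list. Of 10 genes of muscle metabolism only Cox6a2 was called, with 0 and 8 reads, and Eno3, the muscle enolase, had 31 and 82 (log2 ratio 1.03, interval 0.41 to 1.67) beside 110 and 127 for Pygm, muscle glycogen phosphorylase.

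In the cultured cells the muscle genes were lower and partly other genes. Their sum was 22.7 CPM in Cont and 23.4 CPM in OE-BECs, and in LECs 10.2 CPM in Cont beside 9.76 CPM in OE, and 25 of the 40 genes had a lower CPM in every cultured library than in either skin library. Myh3, Myh8, Des, Casq2, Actc1, Tnnt3, Tnni2 and Mybpc1 had between 0 and 8 reads in each cultured library. Myl4 was the gene of the set with a higher level in every cultured library than in both skin libraries, with 141 reads (7.97 CPM) in Cont and 47 (3.37 CPM) in OE-BECs, and 77 (2.95 CPM) in Cont and 78 (2.51 CPM) in OE-LECs, beside 1.81 and 1.44 CPM in skin. Of the 40 genes 13 had a read in all 4 cultured libraries, Mylpf, Atp2a1, Casq1, Tnnc1 and Tnnc2 among them, and for Atp2a1 and Tnnc2 these cannot be told apart from reads of the genes that overlap them.

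**Figure D4:**
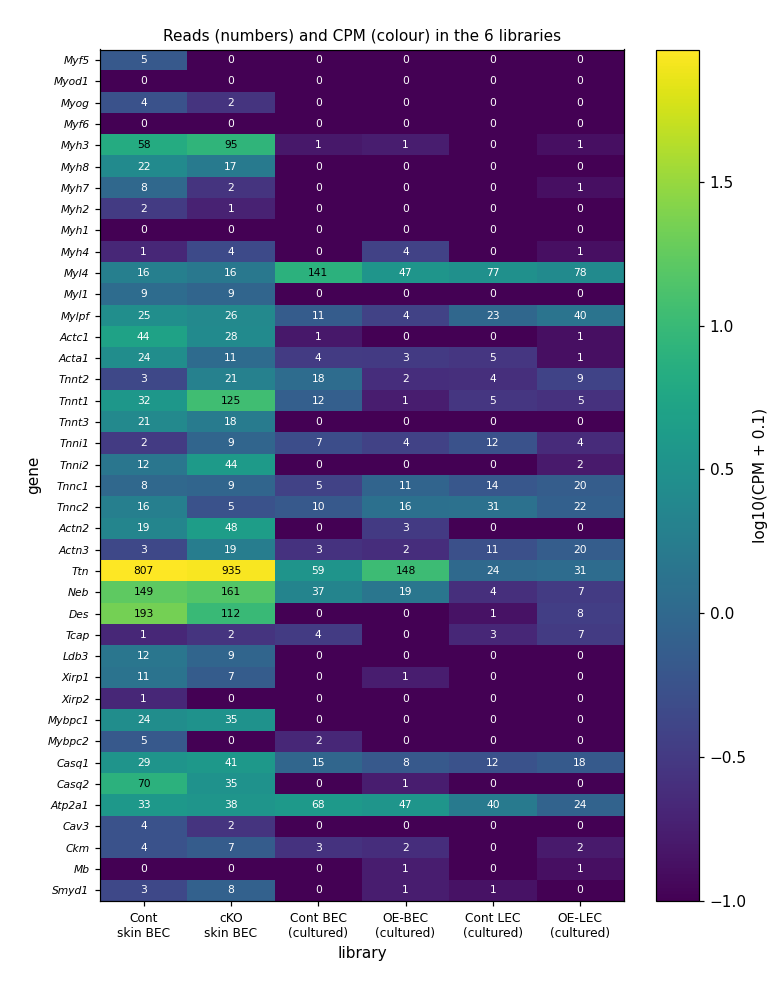
Reads (printed in each cell) and level (colour, log10 of CPM + 0.1) of the 40 muscle genes in the 2 skin and 4 cultured libraries. Ttn, Neb, Des, Myh3 and Casq2 are brighter in both skin columns than in any cultured column, where Ttn reaches 148 reads (OE-BECs) at most, and Myl4 is brightest in Cont BECs (141 reads).

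Between OE-BECs and Cont BECs, 15 of the muscle genes reached the minimum of 3 normalized counts that the methods give for OE samples, and 3 were called higher and 3 lower, beside 8.02% and 5.27% of the 14792 genes that reached it. Of the 3956 genes with under 50 normalized counts in the higher library 1087 were called higher and 592 lower, and for the muscle genes in that range the numbers were 2 and 3 of 12. Ttn was called higher with 59 reads (3.34 CPM) in Cont BECs and 148 (10.6 CPM) in OE-BECs (log2 ratio 1.71, interval 1.27 to 2.17). Tnnt2 (18 and 2 reads, log2 ratio -2.79, interval -5.94 to -0.72) and Tnnt1 (12 and 1 reads, log2 ratio -3.20, interval -8.62 to -0.45) were called lower. The call of Actn2 (0 and 3 reads) rests on a count at the floor. Those of Myh4 (0 and 4) and Tcap (4 and 0) rest on counts just above it, with intervals that include 0. Myl4 was 2.30-fold lower, below the 3-fold of the rule (log2 ratio -1.20, interval -1.71 to -0.72). In OE-LECs 15 genes reached the minimum, with 1 called higher (Des, 1 and 8 reads) and 2 lower (Tnni1, 12 and 4 reads, and Acta1, 5 and 1), beside 2.77% and 2.09% of 13883 genes and, under 50 normalized counts, 305 and 257 of 2795. Tnni1 had an interval from -3.90 to -0.09, while those of Des and Acta1 included 0. Ttn, with 24 and 31 reads in the LEC libraries, had a log2 ratio of 0.14 (interval -0.68 to 0.97), and the difference from BECs was not tested.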

How the data were processed

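RNA-seq counts of 6 libraries, 1 per group, were used. The authors used skewer v0.2.2 (-L 75) to trim adapters, STAR v2.7.9a to align to mm10 and VERSE v0.1.5 (-S) to count, and deposited raw counts per gene symbol. The handling of multi-mapped reads, and what the -S option sets, are not given in the sources used here. Groups follow the sample titles. Genes, lists and alternatives were chosen with earlier results of these data known.

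Here the counts of each pair of libraries were scaled by the median of ratios of DESeq2 1.42.0 in R 4.3.3, which lowers the cKO over Cont log2 ratio by 0.055 against CPM. Log2 ratios and shares have exact (Clopper-Pearson) 95% intervals, odds ratios conditional exact ones, and medians used a pseudocount of 1. A count of 0 was bounded with 3 reads. Exon lengths, positions and overlaps came from GENCODE M21, without regard to strand. The named genes are all 40, and in the other muscle lists those called and the 2 with the most reads. Alternatives were total counts, TMM scaling (edgeR 4.0.16), other minimums, folds and pseudocounts, and smaller gene sets. The steps were checked on simulated counts (Python 3.11.15, scipy 1.17.1).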

Additional observations from a re-analysis of the deposited data

How the results depend on the processing

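No paired analysis was possible because each group has 1 library, and for the same reason no library could be left out. Under TMM factors and total counts the same 4 genes were called higher and the same 4 lower in cKO, and size factors from all 6 libraries added Myh4. With a minimum of 20 normalized counts 1 gene (Tnnt1) was called higher and 0 lower, with a pseudocount of 1 the calls higher were 2 (Tnnt2 and Actn3), and with a limit of more than 2 times 6 genes were called higher (Tnni2 and Smyd1 added) and 9 lower. Chosen after the data were examined, leaving out genes with any exon overlap left 1 lower call (Myf5), and leaving out those overlapped over at least 10% of their length left 2 (Myf5 and Mybpc2). The median log2 ratio was -0.32 with genes of at least 1 read, which adds genes with few reads. The log2 ratio of the summed reads was -0.19 without genes overlapped over at least 10% of their length and -0.23 without Ttn. It was -0.057 without Des, Tnnt2, Ldb3, Casq2 and Actc1, and it was 0.10 without all genes with an exon overlap. That setting drops Des, Ttn (overlapped over 453 of 116825 bases) and Neb (45 of 26582). No interval was kept for the 0.10, so its sign is not read as a reversal. No direction is given for the muscle genes as a whole. With a minimum of 20 normalized counts, 1 gene was called in OE-BECs (Ttn) and 0 in OE-LECs.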
